A study of Mus musculus with 9 samples.

Results

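The genes described here encode the machinery of mitosis, from the kinases that start it to the motors, kinetochore proteins and condensins that move and compact the chromosomes. A list of 50 gene symbols chose them, and all 50 were among the 55291 genes counted in every library and among the 15066 genes with enough reads to be tested. They were followed in mouse acute myeloid leukaemia (AML) cells from 3 sites, with 3 libraries per site and 9 in all. One group came from the lungs of wild-type (WT) recipient mice, another from the bone marrow of WT recipient mice and the last from in vitro culture. Cells of all 3 groups shared the genotype Trp53(R172H/Δ): one Trp53 allele encodes p53 with the amino acid change R172H, and the other is given as Δ. The labels name no age, sex or time after transfer, and do not say whether the libraries of a group came from separate mice or cultures, so p-values measure the spread between these libraries. The study is about tissue microenvironments in AML, so the comparisons ask how the leukaemia cells differ between lung and bone marrow and between each tissue and culture.

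Mitosis is started by the kinase CDK1 bound to cyclin B, which CDC25 phosphatases switch on and the kinase WEE1 holds back. Condensins and topoisomerase II then compact and disentangle the chromosomes, kinetochores built on the centromere attach them to spindle microtubules, and a checkpoint delays anaphase until every chromosome is attached. The anaphase-promoting complex (APC/C) with CDC20 then marks cyclin B and securin for destruction, and the cell divides at the midzone. RNA of most of these genes builds up late in the cell cycle of dividing cells. Promoters of many carry a CCAAT box and a cell cycle genes homology region (CHR), a short element read by the MuvB complex together with MYBL2 and FOXM1 in cycling cells or with pocket proteins in resting cells.

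Libraries held 27485111 to 38761363 counted reads, so 1 read equalled 0.0258 to 0.0364 CPM (reads scaled to library size). Kit, which encodes a progenitor receptor, led the blood and progenitor markers, whose summed level was 1262 to 1537 CPM in lung, 1099 to 1308 CPM in bone marrow and 2209 to 2320 CPM in culture. Other defining markers of that list were low: Ptprc, the pan-leukocyte antigen, averaged 8.11 ± 2.08 CPM in lung, 7.13 ± 8.72 CPM in bone marrow and 1.62 ± 0.369 CPM in culture, and Cd33 had 0 reads in every culture library. Some markers of other cells moved with the groups. The summed level of 15 neutrophil lineage genes, led by Ngp, was 86.5, 11.8 and 12.3 CPM across the lung replicates, against 344, 600.2 and 2132 CPM across the bone marrow replicates. It was 1.28 to 2.55 CPM in culture, with 4 of the 15 at 0 in all culture libraries. The 9 lung epithelium genes summed to between 14.9 and 84.4 CPM in lung, against at most 0.898 CPM in bone marrow and 1.015 CPM in culture. Of 9 tested endothelium genes 8 were higher in lung than in bone marrow, beside 14.2% of all tested genes. Yet the endothelium sum, led by Egfl7, was highest in culture (290 to 327 CPM, against 198 to 224 CPM in lung). The erythroid sum was highest in culture too, at 907 to 931 CPM. The part of these other cells in the values below was not tested.

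Mitosis genes were lower in leukaemia cells from both tissues than in cultured cells. In bone marrow against culture 44 of 50 members were lower and 2 were higher at an adjusted p under 0.05, beside 29.8% of all tested genes lower and 30.7% higher (60.5% in either direction). In lung against culture 46 were lower and 1 was higher, beside 27% and 27.9% of all genes (54.9% in either direction). The median log2 change of the members was -0.74 in bone marrow against culture (0.05 over all genes) and -0.92 in lung against culture (0.02 over all genes). Fewer members passed between the tissues: 17 were lower in lung and 2 were higher, beside 11.1% and 14.2% of all genes (25.3% in either direction), with a median of -0.17 (-0.01 over all genes). That median was -0.07 without bone marrow replicate 1 and -0.24 without bone marrow replicate 2, the lowest and highest sizes with any 1 library left out. The counts between the tissues rest on a spread estimated from all 9 libraries, culture included. With only the 6 tissue libraries fitted, 12 members were lower in lung and 1 was higher, beside 981 and 1400 of all genes.

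Added together, the 50 genes made up 0.708%, 0.689% and 0.702% of the reads in lung replicates 1 to 3, against 0.876%, 0.714% and 0.786% in bone marrow and 1.33%, 1.32% and 1.32% in culture. Their summed level averaged 6970 ± 181 CPM in lung, 7783 ± 952 CPM in bone marrow and 13542 ± 96.02 CPM in culture (SD, n = 3 each). The median coefficient of variation over the members was 6.92% in lung, 13.9% in bone marrow and 2.75% in culture, beside 11.5%, 13.7% and 6.75% over all tested genes in the same order. Bone marrow replicate 1 was the highest of its group for 39 members and bone marrow replicate 2 the lowest for 38. Without bone marrow replicate 3, the library with the most neutrophil RNA, 43 members were lower and 2 higher in bone marrow against culture, and 18 were lower and 1 higher in lung against bone marrow. That fit called 8669 of all genes in bone marrow against culture, 49.8% of them higher. In lung against bone marrow it called 1725 of all genes lower and 2016 higher. Bone marrow replicates 1 and 2 still held 344 and 600.2 CPM of neutrophil genes. The part of neutrophil RNA in these counts was not tested. In bulk RNA, fewer cells in mitosis and less of these RNAs per cell cannot be told apart. The comparisons share libraries: both tissues are set against the same 3 cultures.

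**Figure D1:**
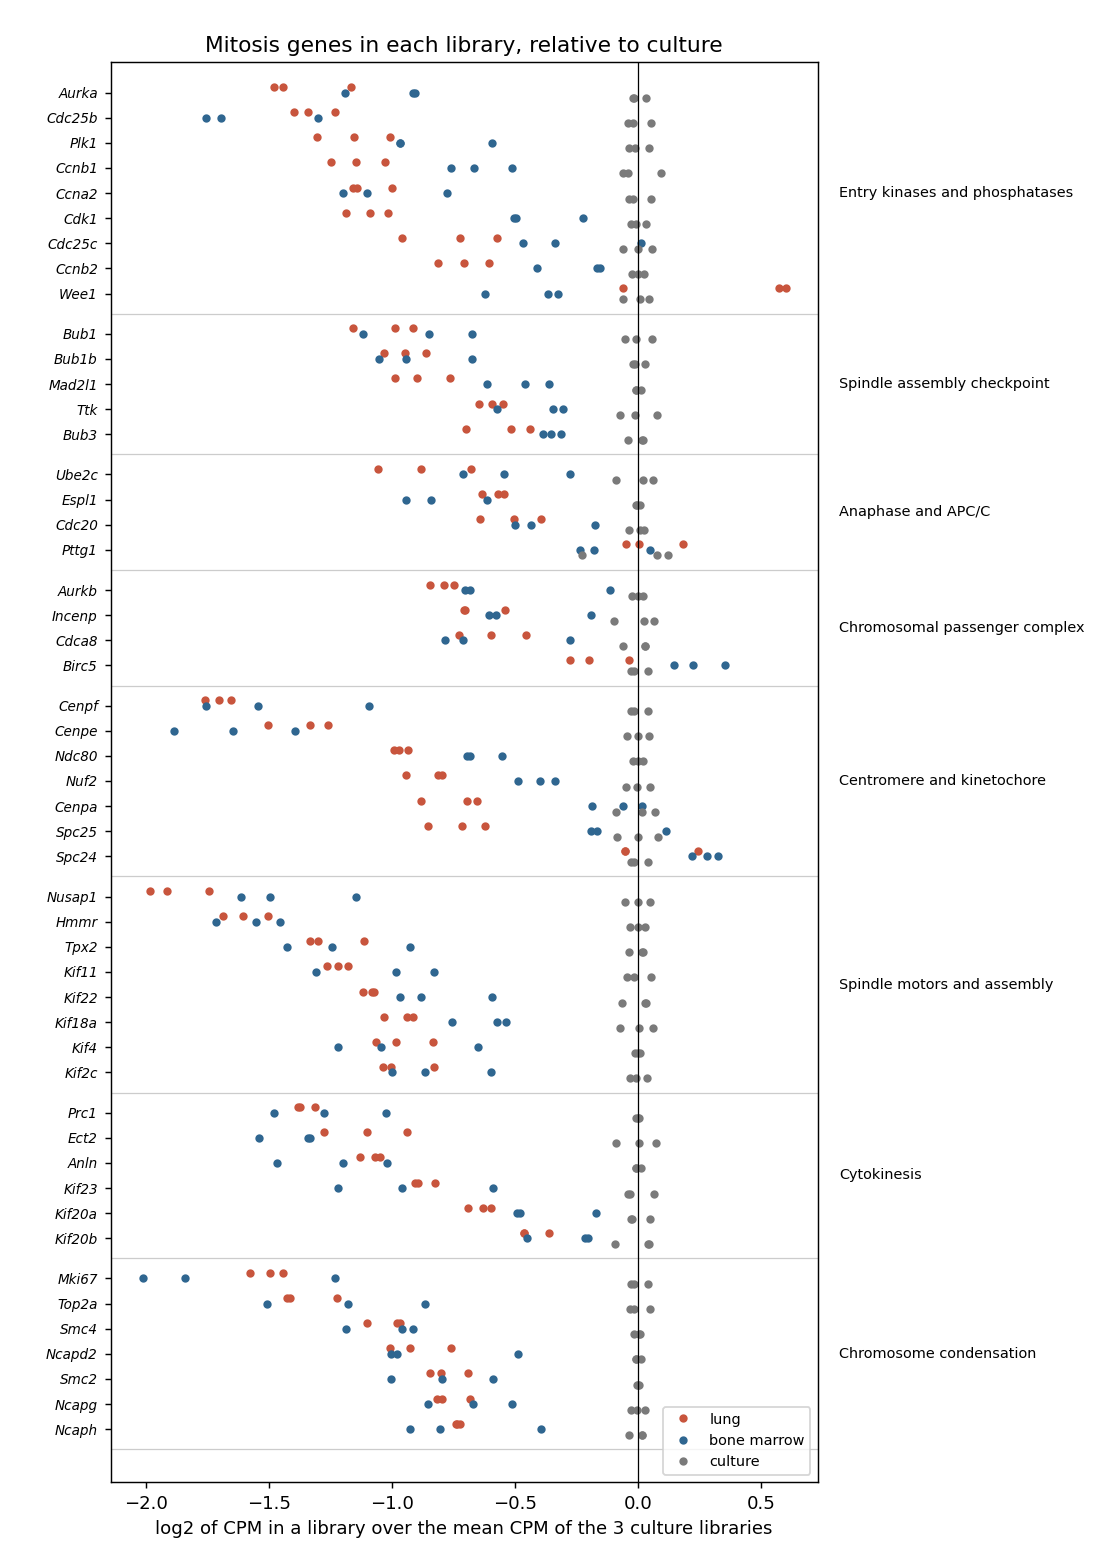
Each of the 50 mitosis genes (rows, grouped by role) in each of the 9 libraries (points coloured by lung, bone marrow or culture), on the x axis as log2 of its CPM over the gene's mean CPM in the 3 culture libraries. In most rows the lung and bone marrow points lie left of the culture points, and groups mostly to their right are Wee1 in lung and Birc5 and Spc24 in bone marrow.

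Many changes were shallow. Unless a percentage is given, every change below is a log2 change, and ± beside it is its standard error. Past a 1.5-fold change, tested as such with glmTreat, 24 members were lower in bone marrow and 32 in lung against culture, and 0 passed between lung and bone marrow (2 at an unadjusted p under 0.05). Of all 15066 genes tested, 3916, 3144 and 476 passed in either direction in the same order of comparisons. The fitted change was a fall of more than 2-fold for 14 called members in bone marrow and 20 in lung against culture. Of all genes, 1833 and 1528 were called with such a fall, and 1890 and 1597 with such a rise. Libraries did not overlap between the groups, with the tissue lower, for 44 members in bone marrow against culture and 47 in lung against culture, beside 32.9% of all tested genes in each. With the tissue higher they did not overlap for 2 members in bone marrow against culture, beside 34.3% of all genes, and for 0 in lung, beside 34%. Between lung and bone marrow 17 members did not overlap with lung lower and 2 with lung higher, beside 18.1% and 18.5%.

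Promoter sequences from RefSeq (build GRCm38.p6, 250 bases before to 50 after the annotated start) were found for 41 of the 50 members, 44 promoters in all. The letters of the CHR (TTTGAA or TTCGAA, either strand) occurred in 35 of these 44 promoters, 79.5%, beside 19.2% of all 32851 promoters in the table and 14.4% of the 13204 promoters of tested genes. They lay within 50 bases of the start in 70.5% of the members' promoters, against 5.31% of all promoters. A CCAAT box (CCAAT, either strand) was present in 75% of the members' promoters, against 37.4% of all, and both elements together in 70.5%, against 7.52%. The E2F core GGCGGGA (either strand) was present in 25% of the members' promoters, against 11.3% of all promoters and 19.9% of those of tested genes.

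A set of 6 promoters, picked as examples without a rule, shows the elements. Each runs from 140 bases before to 20 after the start, read on the gene's own strand. The first 5 belong to members that were lower in both tissues than in culture and contain CHR letters: Cdk1 (chr10:69352893-69353052, minus strand), Cdc20 (chr4:118437324-118437483, minus), Cenpf (chr1:189688067-189688226, minus), Hmmr (chr11:40733418-40733577, minus) and Kif11 (chr19:37376242-37376401, plus). The last, Birc5 (chr11:117849097-117849256, plus), is a member that was higher in bone marrow than in culture, and its window has no CHR letters. Capitals mark the CHR, the CCAAT box and the E2F core on either strand.
Cdk1: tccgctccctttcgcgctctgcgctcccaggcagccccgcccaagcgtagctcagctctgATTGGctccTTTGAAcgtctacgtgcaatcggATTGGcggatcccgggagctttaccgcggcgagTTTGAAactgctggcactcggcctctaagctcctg
Cdc20: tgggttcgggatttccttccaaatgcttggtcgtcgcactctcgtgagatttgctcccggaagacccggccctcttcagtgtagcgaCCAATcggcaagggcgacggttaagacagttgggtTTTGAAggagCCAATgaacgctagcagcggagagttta
Cenpf: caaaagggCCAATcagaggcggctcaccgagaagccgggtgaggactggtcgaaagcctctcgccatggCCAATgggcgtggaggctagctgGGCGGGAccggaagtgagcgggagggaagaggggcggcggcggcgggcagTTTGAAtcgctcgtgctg
Hmmr: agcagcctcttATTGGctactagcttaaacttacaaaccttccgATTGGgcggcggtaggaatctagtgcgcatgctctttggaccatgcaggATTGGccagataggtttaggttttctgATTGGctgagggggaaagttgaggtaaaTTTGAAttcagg
Kif11: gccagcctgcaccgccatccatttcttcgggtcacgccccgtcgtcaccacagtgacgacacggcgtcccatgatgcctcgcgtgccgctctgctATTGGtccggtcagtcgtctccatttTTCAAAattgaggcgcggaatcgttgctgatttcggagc
Birc5: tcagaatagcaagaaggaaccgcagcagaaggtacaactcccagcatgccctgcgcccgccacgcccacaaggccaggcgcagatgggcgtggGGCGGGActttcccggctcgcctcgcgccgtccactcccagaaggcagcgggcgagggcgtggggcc

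In Cdk1, Cdc20, Cenpf, Hmmr and Kif11 the CHR letters stand downstream of 1 or more CCAAT boxes. Cdc20 also has a CCAAT box downstream of its CHR, and Cdk1 has a CCAAT box between its CHR matches. In Kif11 the CHR is on the opposite strand, printed as TTCAAA. The 41 members with a promoter divided into 32 with and 9 without CHR letters. Of the 32 with CHR letters 30 were lower in bone marrow against culture and 32 in lung against culture. Of the 9 without, 7 were lower in each comparison: Ccnb1, Mad2l1, Cenpe, Nuf2, Kif18a, Nusap1 and Ncaph. Nusap1 had the largest fall of all members in lung against culture. Median log2 changes were -0.81 with and -0.62 without the letters in bone marrow against culture, and -0.95 with and -0.88 without in lung against culture. In lung against bone marrow 9 of the 32 with and 6 of the 9 without were lower, with medians of -0.14 and -0.41. A match is a description of letters, not a shown binding site.

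**Figure D2:**
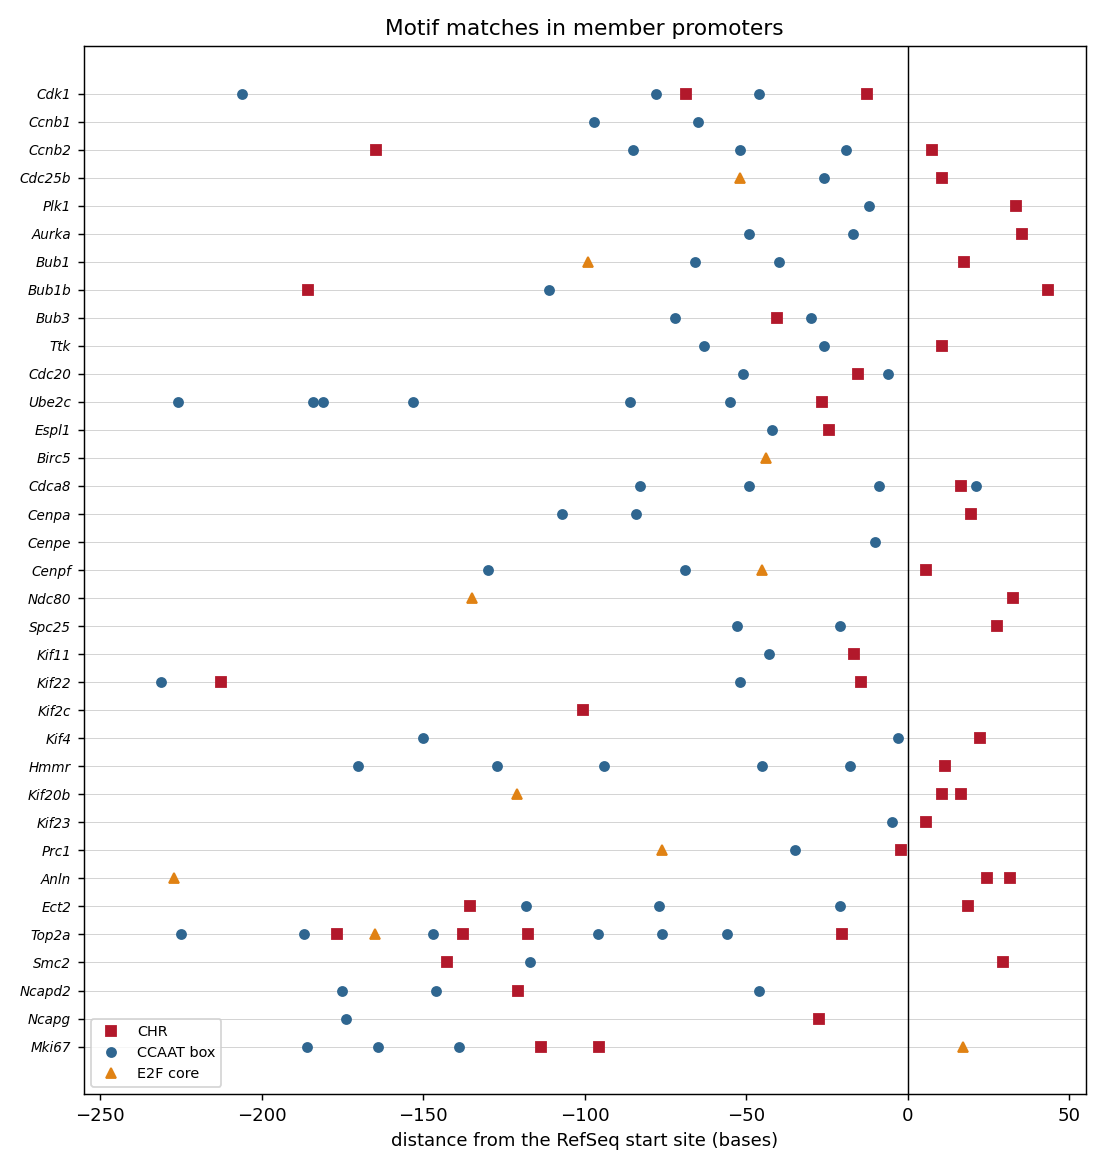
Position of CHR letters, CCAAT boxes and E2F cores, in bases from the annotated start, in the promoters of the 35 members with at least 1 match (1 row per gene, the first listed promoter where a gene has 2; points are matches on either strand). In most rows CHR letters (red squares) lie within 50 bases of the start, and CCAAT boxes (blue circles) lie mostly to their left.

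Of the 9 kinases, cyclins and phosphatases of mitotic entry, 8 were lower in lung and 8 in bone marrow than in culture, and 6 were lower in lung than in bone marrow. Cdk1 (chromosome 10, 69335146 to 69352938 in GRCm38), the kinase that drives mitosis, stepped down between all 3 sites. Its level was 119, 106 and 113 CPM in lung, 206, 169.6 and 171 CPM in bone marrow and 239.6, 236 and 246 CPM in culture, and no library of a group overlapped another group. Its log2 change was -0.69 ± 0.09 (adjusted p = 0.00016) in lung against bone marrow, -0.40 ± 0.09 (adjusted p = 0.0013) in bone marrow against culture and -1.09 ± 0.09 (adjusted p = 3.6e-07) in lung against culture. Ccnb1, the cyclin B1 gene, had 155, 134 and 143 CPM in lung, 222, 187 and 200.01 CPM in bone marrow and 304, 308 and 338 CPM in culture. Its groups were equally well separated, with changes of -0.50 ± 0.09 (adjusted p = 0.0017), -0.64 ± 0.09 (adjusted p = 2.9e-05) and -1.14 ± 0.09 (adjusted p = 2.5e-07) in the same order of comparisons. Ccnb2, cyclin B2, had changes of -0.47 ± 0.09 (adjusted p = 0.0023), -0.24 ± 0.09 (adjusted p = 0.027) and -0.70 ± 0.09 (adjusted p = 1.4e-05) in that order. Its call in bone marrow against culture was lost under 8 of the 20 alternatives tried, among them leaving out any 1 culture library or bone marrow replicate 3 (-0.16 without the last). With an offset for exonic length and GC content, described below, its change was -0.22 in lung against bone marrow, which did not pass (adjusted p = 0.085), and -0.48 in bone marrow against culture.

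Cdc25b, a phosphatase that activates CDK1, had the largest fall of this role in bone marrow. It was at 27.4, 26.3 and 29.5 CPM in lung, 28.2, 20.5 and 21.4 CPM in bone marrow and 68.4, 67.5 and 72.0 CPM in culture. Both tissues lay far under culture but overlapped each other (-1.57 ± 0.12, adjusted p = 1.3e-07 in bone marrow and -1.32 ± 0.12, adjusted p = 8.4e-07 in lung against culture). Ccna2, cyclin A2, behaved alike: 255, 252 and 281 CPM in lung and 328, 244 and 262 CPM in bone marrow overlapped, against 548, 554 and 582 CPM in culture. The changes were -1.01 ± 0.10 (adjusted p = 1.7e-06) in bone marrow and -1.10 ± 0.10 (adjusted p = 1.2e-06) in lung against culture. Aurka, a kinase of the centrosome and spindle poles, was at 85.3, 83.4 and 103 CPM in lung, 123, 102 and 124 CPM in bone marrow and 229, 229 and 238 CPM in culture. It had the largest fall of this role in lung against culture (-1.36 ± 0.10, adjusted p = 1.7e-07) and fell in bone marrow too (-0.996 ± 0.10, adjusted p = 1.7e-06). Lung replicate 3 lay above bone marrow replicate 2, although lung passed the test as lower than bone marrow (-0.36 ± 0.10, adjusted p = 0.019). That call was lost under 4 alternatives, among them the fit of only the 6 tissue libraries and leaving out lung replicate 1 or 2. Plk1, polo-like kinase 1, was lower in all 3 comparisons, at -0.32 ± 0.11 (adjusted p = 0.044) in lung against bone marrow and at -0.83 ± 0.11 (adjusted p = 1.7e-05) in bone marrow and -1.15 ± 0.11 (adjusted p = 1.4e-06) in lung against culture. The call between the tissues was lost under 8 alternatives, among them leaving out any 1 culture library, and the change was -0.19 without bone marrow replicate 1 (adjusted p = 0.13). Cdc25c was lower in lung against both other groups and did not pass in bone marrow against culture (-0.25 ± 0.13, adjusted p = 0.11).

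Wee1, the kinase that restrains CDK1, was the 1 member of mitotic entry that went the other way in lung. Its level was 226, 222 and 143 CPM in lung, 119, 96.7 and 116 CPM in bone marrow and 143, 149.8 and 154 CPM in culture. Lung replicates 1 and 2 were far above every other library, while lung replicate 3 lay just under the lowest culture library and above all bone marrow libraries. Every bone marrow library was under every culture library. Wee1 rose in lung against bone marrow (0.83 ± 0.15, adjusted p = 0.0031) and fell in bone marrow against culture (-0.43 ± 0.15, adjusted p = 0.028), a call lost under 6 alternatives. Lung against culture passed narrowly (0.40 ± 0.15, adjusted p = 0.040) with groups that were not separated, and did not pass under 10 of the alternatives tried.

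All 5 checkpoint members were lower in both tissues than in culture, and 1 was lower in lung than in bone marrow. Bub1, a kinetochore kinase of the checkpoint, had 97.9, 86.9 and 103 CPM in lung, 108, 89.5 and 122 CPM in bone marrow and 193, 187 and 202 CPM in culture. Bub1b, which encodes the checkpoint protein BUBR1, had 205, 217 and 230.5 CPM in lung, 262, 202 and 218 CPM in bone marrow and 416, 413 and 427 CPM in culture. In both genes the tissues overlapped and lay under all culture libraries. Bub1 changed by -0.87 ± 0.11 (adjusted p = 1.0e-05) in bone marrow and -1.02 ± 0.11 (adjusted p = 3.4e-06) in lung against culture, and Bub1b by -0.88 ± 0.09 (adjusted p = 3.0e-06) in bone marrow and -0.94 ± 0.09 (adjusted p = 2.2e-06) in lung. Mad2l1, which encodes MAD2, the protein that holds CDC20, was the member lower in lung than in bone marrow (-0.41 ± 0.09, adjusted p = 0.0052). It was at 67.9, 64.0 and 74.7 CPM in lung, 82.9, 92.2 and 98.6 CPM in bone marrow and 126, 128 and 126 CPM in culture, with no overlap between groups. Bub3 and Ttk (the kinase MPS1) had shallower falls, of -0.35 ± 0.08 (adjusted p = 0.0017) and -0.40 ± 0.09 (adjusted p = 0.0016) in bone marrow and -0.55 ± 0.08 (adjusted p = 5.7e-05) and -0.59 ± 0.09 (adjusted p = 9.1e-05) in lung against culture. With the offset for exonic length and GC content Bub3 did not pass in bone marrow against culture (-0.14, adjusted p = 0.15).

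Of the 4 anaphase genes, 3 were lower in both tissues than in culture, and the securin gene passed in neither. Ube2c, the ubiquitin-conjugating enzyme of the APC/C, was at 129, 146 and 168 CPM in lung, 222, 164 and 184 CPM in bone marrow and 281, 253 and 273 CPM in culture. Its changes were -0.36 ± 0.12 (adjusted p = 0.035) in lung against bone marrow, where lung replicate 3 overlapped bone marrow, -0.50 ± 0.12 (adjusted p = 0.0022) in bone marrow and -0.86 ± 0.12 (adjusted p = 3.7e-05) in lung against culture. The call between the tissues was lost under 6 alternatives, and the change was -0.24 without bone marrow replicate 1 (adjusted p = 0.089). Espl1, separase, which cuts cohesin at anaphase, was at 138, 147 and 144 CPM in lung, 140.1, 112 and 119.8 CPM in bone marrow and 216, 213 and 214 CPM in culture. It fell by 0.79 ± 0.09 on the log2 scale in bone marrow (adjusted p = 3.6e-06) and by 0.58 ± 0.09 in lung (adjusted p = 6.9e-05) against culture. Pttg1, which encodes securin, the inhibitor of separase, was at 29.8, 25.4 and 26.3 CPM in lung, 27.1, 22.3 and 23.2 CPM in bone marrow and 28.6, 27.7 and 22.4 CPM in culture, with overlapping groups. It was the member that passed in no comparison (0.17 ± 0.12, adjusted p = 0.34 in lung against bone marrow; -0.12 ± 0.12, adjusted p = 0.43 in bone marrow and 0.05 ± 0.12, adjusted p = 0.74 in lung against culture). Cdc20, the activator of the APC/C, changed by -0.36 ± 0.09 (adjusted p = 0.0042) in bone marrow and -0.51 ± 0.09 (adjusted p = 0.00044) in lung against culture.

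The 4 genes of the chromosomal passenger complex, a kinase complex that corrects faulty attachments, did not all move one way. Aurkb, its kinase, had 141, 135 and 145 CPM in lung, 224, 149 and 152 CPM in bone marrow and 247, 243 and 239 CPM in culture. Incenp, its scaffold, had 218, 195 and 194 CPM in lung, 278, 213 and 208 CPM in bone marrow and 331, 322 and 296 CPM in culture. Every tissue library of both was under every culture library, with changes of -0.47 ± 0.13 (adjusted p = 0.0069) and -0.44 ± 0.11 (adjusted p = 0.0025) in bone marrow and -0.79 ± 0.13 (adjusted p = 0.00023) and -0.65 ± 0.11 (adjusted p = 0.00017) in lung. In both genes bone marrow replicate 1 stood above the other 2 bone marrow libraries. Cdca8, which encodes borealin, had 94.5, 86.3 and 104 CPM in lung, 118, 82.9 and 87.3 CPM in bone marrow and 146, 146 and 137 CPM in culture, with changes of -0.57 ± 0.12 (adjusted p = 0.0011) in bone marrow and -0.59 ± 0.12 (adjusted p = 0.0011) in lung against culture. Birc5, which encodes survivin, had another order of groups. It was at 146, 138 and 163 CPM in lung, 214, 185 and 195 CPM in bone marrow and 172, 166 and 164 CPM in culture. All bone marrow libraries were above all culture libraries and all lung libraries under them. Birc5 was higher in bone marrow than in culture (0.24 ± 0.08, adjusted p = 0.022), lower in lung than in bone marrow (-0.41 ± 0.08, adjusted p = 0.0038) and did not pass in lung against culture (-0.17 ± 0.08, adjusted p = 0.10). Its call in bone marrow against culture was lost when any 1 culture library or bone marrow replicate 1 was left out. In lung against culture Birc5 passed as lower under 3 alternatives.

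Of the 7 centromere and kinetochore members, 6 were lower in lung and 4 in bone marrow than in culture, and 4 were lower in lung than in bone marrow. The 2 large proteins of the outer kinetochore fell most. Cenpe, a kinetochore motor, was at 44.3, 49.8 and 52.5 CPM in lung, 47.7, 34.0 and 40.1 CPM in bone marrow and 129, 125 and 122 CPM in culture. Cenpf was at 44.0, 42.2 and 45.5 CPM in lung, 67.0, 42.4 and 49.0 CPM in bone marrow and 147, 140.3 and 142 CPM in culture. Every tissue library of both genes was under every culture library by a wide margin, with changes of -1.63 ± 0.12 (adjusted p = 7.2e-08) and -1.44 ± 0.13 (adjusted p = 1.2e-06) in bone marrow and -1.36 ± 0.11 (adjusted p = 4.9e-07) and -1.70 ± 0.13 (adjusted p = 4.4e-07) in lung. Cenpa, the histone H3 variant that marks the centromere, differed between the tissues instead. It had 139, 122 and 143 CPM in lung, 216, 228 and 198 CPM in bone marrow and 236, 228 and 212 CPM in culture. Bone marrow overlapped culture and lung was under both, with -0.67 ± 0.09 (adjusted p = 0.00019) in lung against bone marrow, -0.07 ± 0.09 (adjusted p = 0.47) in bone marrow against culture and -0.74 ± 0.09 (adjusted p = 9.0e-06) in lung against culture.

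The 4 subunits of the NDC80 complex, which binds the microtubule, differed in which comparisons they passed. Ndc80 and Nuf2, which form its microtubule-binding end, were lower in all 3 comparisons. Ndc80 changed by -0.32 ± 0.07 (adjusted p = 0.0070) in lung against bone marrow and -0.64 ± 0.07 (adjusted p = 5.9e-06) in bone marrow against culture, and Nuf2 by -0.44 ± 0.08 (adjusted p = 0.0021) and -0.41 ± 0.08 (adjusted p = 0.00067). Spc24 and Spc25, which form its centromere end, did not pass as lower in bone marrow than in culture. Spc25 was at 44.8, 49.3 and 52.7 CPM in lung, 71.0, 72.2 and 87.7 CPM in bone marrow and 85.6, 80.9 and 76.4 CPM in culture, so bone marrow overlapped culture and lung was under both (-0.65 ± 0.10, adjusted p = 0.00074 in lung against bone marrow and -0.73 ± 0.10, adjusted p = 4.5e-05 in lung against culture). Spc24 was at 93.3, 93.2 and 115 CPM in lung, 118, 113 and 121 CPM in bone marrow and 99.5, 94.9 and 95.8 CPM in culture. Bone marrow was above culture (0.28 ± 0.09, adjusted p = 0.016), a call lost under 4 alternatives, and lung overlapped both (-0.22 ± 0.09, adjusted p = 0.084 against bone marrow and 0.05 ± 0.09, adjusted p = 0.64 against culture). Scaled to exonic length (all annotated isoforms joined), Spc24 had the highest level of the 4 subunits in every group. That order depends on the annotated lengths, 2573 bases for Spc24 and 6493 for Ndc80, and does not measure subunit proportions. Spc24 was at 39.01, 45.53 and 37.59 CPM per kb in lung, bone marrow and culture. Ndc80 was at 11.52, 14.42 and 22.5 CPM per kb in the same order.

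All 8 spindle motor and assembly members were lower in each tissue than in culture, and 3 of them were lower in lung than in bone marrow. Nusap1 (chromosome 2, 119618298 to 119651244), a microtubule bundling protein, had the largest fall of all 50 members in lung against culture, 72.7% lower. It was at 106, 89.4 and 93.9 CPM in lung, 159.8, 116 and 125 CPM in bone marrow and 354, 341 and 366 CPM in culture, with no overlap between groups. Its changes were -0.47 ± 0.11 (adjusted p = 0.0080) in lung against bone marrow, -1.40 ± 0.11 (adjusted p = 2.1e-07) in bone marrow against culture and -1.88 ± 0.11 (adjusted p = 2.8e-08) in lung against culture. Hmmr, which encodes a hyaluronan receptor that also sits on spindle poles, was at 103, 97.4 and 110.4 CPM in lung, 114, 95.4 and 107 CPM in bone marrow and 313, 306 and 319 CPM in culture. The tissues were interleaved and both lay far under culture, with changes of -1.57 ± 0.08 (adjusted p = 6.6e-09) in bone marrow and -1.59 ± 0.08 (adjusted p = 8.7e-09) in lung. Kif18a, a motor that limits microtubule length, was lower in lung (51.2, 52.1 and 48.1 CPM) than in bone marrow (58.2, 67.7 and 66.1 CPM) and in culture (98.6, 93.4 and 103 CPM). Lung and bone marrow did not overlap (-0.34 ± 0.09, adjusted p = 0.012). Kif22, a motor on chromosome arms, also differed between the tissues (-0.28 ± 0.09, adjusted p = 0.039), a call lost under 10 alternatives (-0.17 without bone marrow replicate 1). The other 4, Kif11, Kif2c, Kif4 and Tpx2, overlapped between the tissues and changed by between -0.81 and -1.18 in bone marrow and between -0.95 and -1.24 in lung against culture.

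All 6 cytokinesis members were lower in each tissue than in culture. Prc1, the bundler of the spindle midzone, had 111, 111 and 116 CPM in lung and 142, 103 and 119 CPM in bone marrow, against 288, 289 and 286 CPM in culture. The tissues overlapped, and the changes were -1.25 ± 0.10 (adjusted p = 2.0e-07) in bone marrow and -1.35 ± 0.10 (adjusted p = 1.4e-07) in lung. Ect2, the exchange factor that activates RhoA at the division site, was at 183, 163 and 145 CPM in lung, 139, 121 and 138 CPM in bone marrow and 329, 351 and 369 CPM in culture. All lung libraries were above all bone marrow libraries, and both groups were far under culture. Ect2 was lower in bone marrow (-1.40 ± 0.10, adjusted p = 5.7e-08) and in lung (-1.10 ± 0.10, adjusted p = 7.1e-07) than in culture, and higher in lung than in bone marrow (0.30 ± 0.10, adjusted p = 0.033), a call lost under 9 alternatives. Kif20a, a midzone motor, was lower in lung (175, 164 and 171 CPM) than in bone marrow (235, 190.2 and 189 CPM; -0.27 ± 0.09, adjusted p = 0.043), a call lost under 11 alternatives (-0.16 without bone marrow replicate 1). Of its exonic length 29.3% overlaps Cdc23 on the other strand, and reads were counted without strand. Anln, Kif23 and Kif20b fell by 1.21, 0.90 and 0.28 on the log2 scale in bone marrow and by 1.08, 0.87 and 0.43 in lung against culture. Kif20b did not pass in bone marrow against culture with the offset for exonic length and GC content (-0.18, adjusted p = 0.068).

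All 7 condensation members were lower in each tissue than in culture, and their adjusted p in lung against bone marrow lay between 0.30 and 0.99. Mki67 (chromosome 7, 135689784 to 135716361), the Ki-67 protein that coats mitotic chromosomes and a clinical marker of proliferation, was at 214, 222 and 202 CPM in lung, 257, 149.8 and 169 CPM in bone marrow and 622, 592 and 598 CPM in culture. Bone marrow spanned lung on both sides (0.15 ± 0.16, adjusted p = 0.53), and both tissues were under all culture libraries, with changes of -1.65 ± 0.16 (adjusted p = 6.9e-06) in bone marrow and -1.50 ± 0.16 (adjusted p = 1.8e-05) in lung. Without bone marrow replicate 1, Mki67 passed as higher in lung than in bone marrow (0.42, adjusted p = 0.0021). Top2a, topoisomerase II alpha, was the most abundant member by CPM in every group, at 620.4, 539 and 544 CPM in lung, 796, 510.1 and 639.9 CPM in bone marrow and 1416, 1430.5 and 1497 CPM in culture. Bone marrow again held both the highest and the lowest tissue library, and the changes were -0.19 ± 0.13 (adjusted p = 0.30) in lung against bone marrow, -1.16 ± 0.13 (adjusted p = 7.7e-06) in bone marrow against culture and -1.35 ± 0.13 (adjusted p = 3.0e-06) in lung against culture. All 5 condensin I genes were lower in both tissues. Smc4, an ATPase subunit, had the largest change, at -1.01 ± 0.08 (adjusted p = 2.9e-07) in bone marrow and -1.01 ± 0.08 (adjusted p = 4.2e-07) in lung against culture. Smc2, Ncapd2, Ncapg and Ncaph changed by between -0.67 and -0.80 in bone marrow and between -0.73 and -0.89 in lung. Per kb of joined exons, Smc4 stood at 50.9, 50.8 and 103 CPM in lung, bone marrow and culture. Smc2, its partner in the complex, stood at 40.9, 40.6 and 70.0 CPM, and the proportion between them depends on the annotated lengths.

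**Figure D3:**
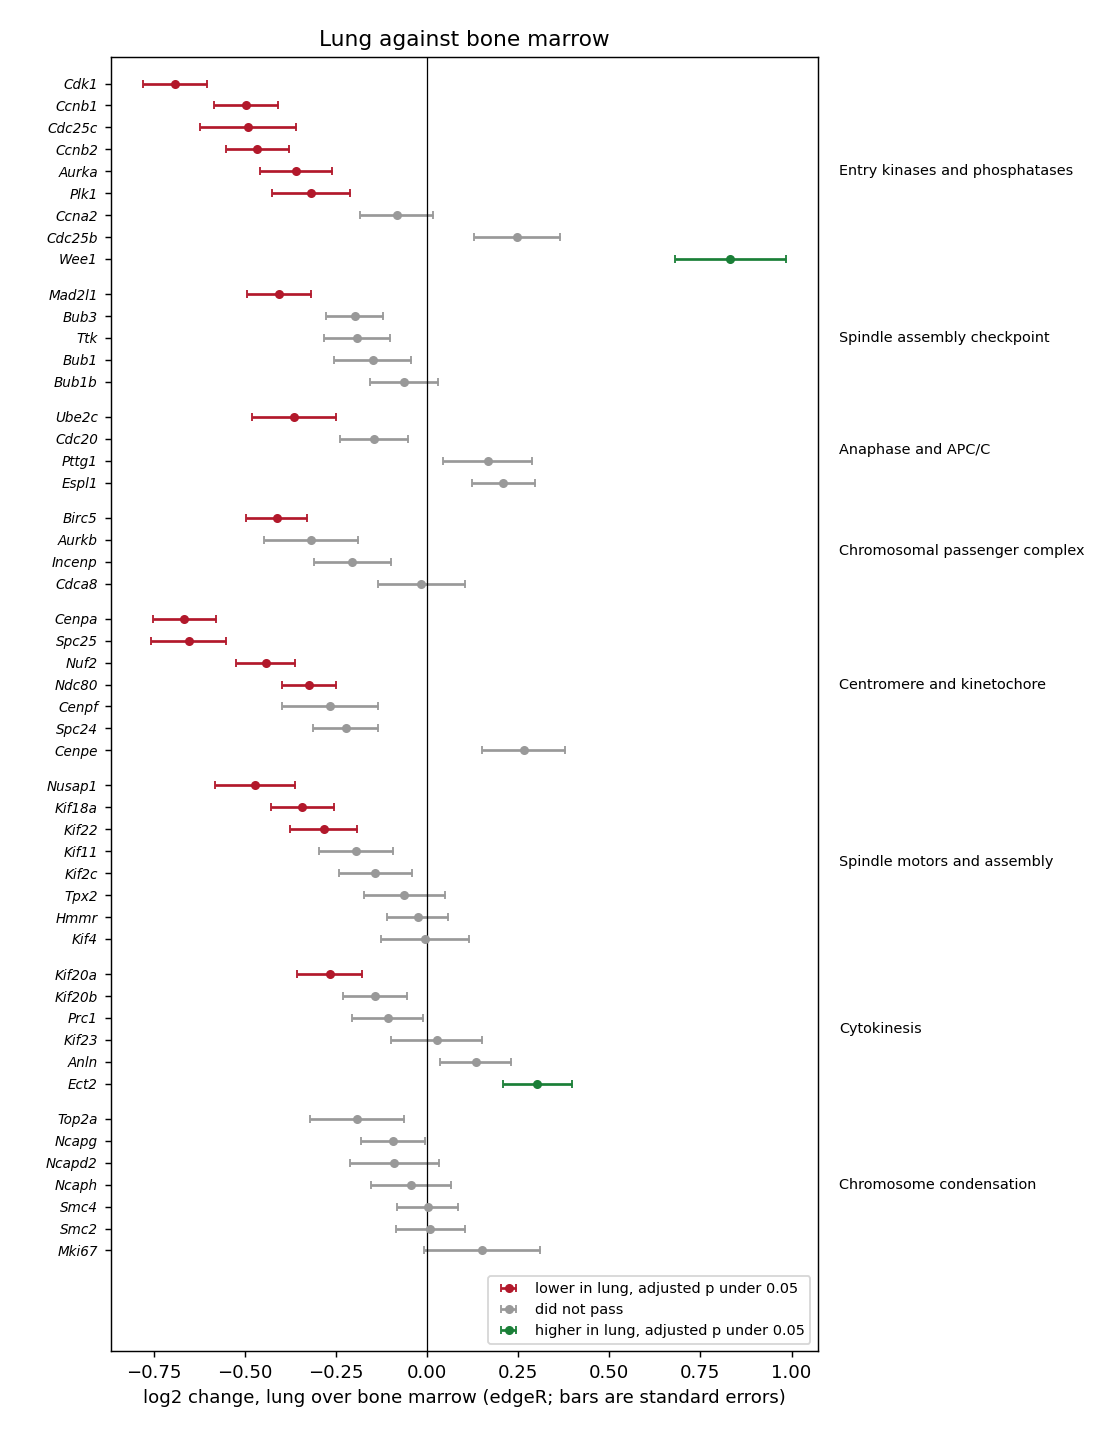
Log2 change of each of the 50 mitosis genes in lung against bone marrow (points on the x axis, with bars of 1 standard error), grouped by role. Red points are lower and green points higher in lung at an adjusted p under 0.05, and grey points did not pass. The 17 lower members are mostly of mitotic entry, the kinetochore and the spindle, Wee1 and Ect2 are the 2 higher ones, and no condensation member passed.

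Set side by side, the comparisons put 13 members lower in all 3: Cdk1, Ccnb1, Ccnb2, Plk1, Aurka, Mad2l1, Ube2c, Ndc80, Nuf2, Kif18a, Kif22, Nusap1 and Kif20a. With only the 6 tissue libraries fitted, Plk1, Aurka, Ube2c, Kif22 and Kif20a did not pass between the tissues. The call of Ccnb2 in bone marrow against culture was lost under 8 alternatives. Another 29 members were lower in both tissues than in culture and did not pass between the tissues. The other 8 were Cdc25c, Cenpa and Spc25, lower in lung against either group, and Wee1, Ect2, Birc5, Spc24 and Pttg1, described above. The lung against bone marrow counts were the ones most bound to single libraries, and the counts over all genes moved too. With every library kept, 1668 of all genes were lower and 2138 higher in lung. Without lung replicate 2, 11 members were lower in lung (984 of all genes). Without bone marrow replicate 1, which had the highest levels of its group, 13 members were lower and 6 were higher (2084 and 2676 of all genes). Those 6 members were Wee1, Ect2, Cdc25b, Espl1, Cenpe and Mki67. Without bone marrow replicate 2, 21 members were lower (928 of all genes). Without culture replicate 1, 2 or 3, the lower members in lung against bone marrow numbered 14, 14 and 13 (1435, 1382 and 1446 of all genes). Leaving out single libraries gave 42 to 45 lower members in bone marrow and 46 to 47 in lung against culture.

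Of 131 other mitosis genes listed by role, 130 were tested. The counts below stand beside 29.8% of all tested genes lower and 30.7% higher in bone marrow against culture, 27% lower and 27.9% higher in lung against culture, and 11.1% lower and 14.2% higher in lung against bone marrow. In bone marrow against culture 65 were lower and 25 higher, with a median log2 change of -0.23. In lung against culture 69 were lower and 19 higher, with a median of -0.27. In lung against bone marrow 27 were lower and 5 higher, with a median of -0.06. Foxm1, a transcription factor of mitotic genes, was at 73.9, 71.9 and 64.0 CPM in lung, 74.8, 54.2 and 64.7 CPM in bone marrow and 129, 117 and 117 CPM in culture, and was lower in bone marrow (-0.91 ± 0.11, adjusted p = 9.8e-06) and in lung (-0.79 ± 0.11, adjusted p = 4.1e-05) than in culture. Mybl2, which joins the MuvB complex in cycling cells, went the other way, at 129.8, 124 and 127 CPM in lung, 159, 116 and 103 CPM in bone marrow and 90.9, 95.2 and 92.4 CPM in culture. Every tissue library of Mybl2 was above every culture library (0.44 ± 0.13, adjusted p = 0.0089 in bone marrow and 0.45 ± 0.13, adjusted p = 0.0085 in lung). Nfyc, a subunit of the factor that binds CCAAT boxes, was also higher in both tissues, by 0.51 ± 0.11 (adjusted p = 0.0013) in bone marrow and 0.65 ± 0.11 (adjusted p = 0.00024) in lung. Lin54, the subunit of MuvB that contacts the CHR, fell by 0.43 on the log2 scale in bone marrow against culture, and Lin37 of the same complex by 0.33 in lung.

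Among 13 E2F and pocket protein genes, 2 were higher and 5 lower in bone marrow, and 5 higher and 4 lower in lung, against culture. Rb1, the retinoblastoma pocket protein, was at 109, 97.1 and 82.0 CPM in lung, 82.5, 62.1 and 70.2 CPM in bone marrow and 207, 225 and 212 CPM in culture. It was lower in bone marrow (-1.58 ± 0.12, adjusted p = 1.2e-07) and in lung (-1.16 ± 0.12, adjusted p = 2.4e-06) than in culture and higher in lung than in bone marrow (0.42 ± 0.12, adjusted p = 0.017), although lung replicate 3 lay just under bone marrow replicate 1. E2f2, an activating E2F, changed by -1.30 in bone marrow and -0.92 in lung against culture. Tfdp1, the dimer partner of E2F, and E2f4, a repressive E2F, were higher in each tissue, Tfdp1 by 0.73 in bone marrow and 0.65 in lung and E2f4 by 0.56 and 0.69.

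Of 32 further kinetochore and centromere genes, 15 were lower and 7 higher in bone marrow, and 18 lower and 3 higher in lung, against culture, and 11 were lower in lung than in bone marrow. Kntc1, which loads checkpoint proteins on kinetochores, fell most in bone marrow (-1.08 ± 0.12, adjusted p = 6.3e-06), and Ska2, a kinetochore coupler, most in lung (-1.37 ± 0.14, adjusted p = 2.3e-06). Ska2 fell by 0.92 in bone marrow against culture. Cenpx and Cenph, of the constitutive centromere network, were higher in bone marrow than in culture, by 0.79 and 0.50. Cenpt, of the same network, and Zw10 were higher in lung than in culture, by 0.50 and 0.42. Oip5, which helps to load CENP-A, was at 37.1, 40.1 and 38.3 CPM in lung, 55.3, 55.2 and 56.9 CPM in bone marrow and 87.5, 87.2 and 88.5 CPM in culture, a stepwise order without overlap (-0.54 ± 0.08, adjusted p = 0.00046 in lung against bone marrow and -1.19 ± 0.08, adjusted p = 6.0e-08 in lung against culture). Cenpp was lower in lung than in bone marrow too (-0.55 ± 0.09, adjusted p = 0.0013).

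Of 15 other checkpoint genes and kinases, 8 were lower and 3 higher in bone marrow, and 9 lower and 4 higher in lung, against culture. Sgo2a, which protects centromeric cohesin, changed by -1.18 ± 0.17 (adjusted p = 5.3e-05) in bone marrow and -1.03 ± 0.17 (adjusted p = 0.00019) in lung. Mastl, a mitotic entry kinase, fell by 0.72 in bone marrow, and Plk4, the centriole duplication kinase, by 0.74 in lung. Trip13, an ATPase that takes the checkpoint complex apart, was higher in both tissues than in culture. It was at 90.9, 85.4 and 94.5 CPM in lung, 108, 117 and 116 CPM in bone marrow and 70.3, 74.3 and 76.4 CPM in culture, with no overlap between groups (-0.34 ± 0.08, adjusted p = 0.0075 in lung against bone marrow and 0.63 ± 0.08, adjusted p = 1.2e-05 in bone marrow against culture). Mad1l1, the anchor of MAD2 at kinetochores, was higher by 0.37 in bone marrow and 0.50 in lung. Cdc25a, a phosphatase acting on CDKs, was higher by 0.40 in lung against bone marrow and by 0.46 against culture, and Mad2l1bp, an adaptor that helps TRIP13 remodel MAD2, was higher by 0.25 in lung against bone marrow. Sgo1 was lower by 0.31 on the log2 scale in lung than in bone marrow.

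Of 17 other anaphase genes, 5 were lower and 7 higher in bone marrow (29.8% and 30.7% of all genes), and 6 lower and 4 higher in lung (27% and 27.9%), against culture. Ube2s, the second ubiquitin-conjugating enzyme of the APC/C, fell by 0.98 in bone marrow and by 0.81 in lung, and Fzr1, its other activator, fell by 0.68 in bone marrow. Fbxo5, which encodes the APC/C inhibitor EMI1, fell by 1.08 in lung against culture and by 0.48 against bone marrow. Anapc15, an APC/C subunit, was higher by 0.80 ± 0.10 (adjusted p = 1.3e-05) in bone marrow and 0.51 ± 0.10 (adjusted p = 0.00075) in lung, and Cdc26, another subunit, by 0.72 and 0.32 in the same order. Anapc13 was lower in lung than in bone marrow (-0.48 ± 0.13, adjusted p = 0.017).

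Among 14 condensin II and cohesin genes, 10 were lower and 1 higher in bone marrow, and 8 lower and 1 higher in lung, against culture. Wapl, which releases cohesin, changed by -0.82 ± 0.08 (adjusted p = 8.0e-07) in bone marrow against culture and was higher in lung than in bone marrow (0.28 ± 0.08, adjusted p = 0.016). Ncapd3, a condensin II subunit, fell by 0.81 in bone marrow and by 0.75 in lung. The alternative cohesin subunits went apart: Stag2 changed by -0.79 ± 0.10 (adjusted p = 1.5e-05) in lung against culture and Stag1 by 0.43 ± 0.08 (adjusted p = 0.00044), with -0.73 ± 0.10 (adjusted p = 2.3e-05) and 0.32 ± 0.08 (adjusted p = 0.0036) in bone marrow. Cdca5, the cohesin protector sororin, was lower in lung than in bone marrow, by 0.27 on the log2 scale.

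Of 29 tested spindle, centrosome and cytokinesis genes outside the 50, 19 were lower and 2 higher in bone marrow, and 21 lower in lung, against culture. Dlgap5, a spindle assembly factor, had 40.8, 47.6 and 52.3 CPM in lung and 50.9, 48.2 and 46.3 CPM in bone marrow, against 136, 139 and 132 CPM in culture (-1.48 ± 0.10, adjusted p = 3.2e-08 in bone marrow and -1.53 ± 0.10, adjusted p = 3.7e-08 in lung). The tissues overlapped and both lay under every culture library. Aspm, a spindle pole protein, fell by 1.43 in bone marrow, and Depdc1a changed by -1.35 ± 0.15 (adjusted p = 5.8e-06) in lung. Haus4 and Haus1, of the augmin complex that branches microtubules, were higher in bone marrow than in culture, by 0.45 and 0.26, and Haus1 was lower in lung than in bone marrow (-0.48 ± 0.09, adjusted p = 0.0023). Cdca3 was lower in lung than in bone marrow as well (-0.44 ± 0.10, adjusted p = 0.0058).

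Genes of DNA replication act earlier in the cell cycle. Of 40 replication genes, 20 were higher and 6 lower in bone marrow against culture, beside 30.7% and 29.8% of all genes, with a median log2 change of 0.25. In lung against culture 13 were higher and 3 lower, beside 27.9% and 27%, with a median of 0.14. In lung against bone marrow 1 was higher and 11 were lower, beside 14.2% and 11.1%, with a median of -0.11. Their summed level was 11809, 10651 and 11611 CPM in lung, 12982, 10867 and 11425 CPM in bone marrow and 11332, 11556 and 11938 CPM in culture, so the groups overlapped. The summed level of the 50 mitosis genes over that of the replication genes was 0.599 to 0.635 in lung, 0.640 to 0.680 in bone marrow and 1.14 to 1.19 in culture. No library's ratio fell within the range of another group, and culture stood apart from both tissues. With 3 libraries against 3, an exact permutation test of a single value cannot go below 0.1 (two-sided), so no p is given for these sums.

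**Figure D4:**
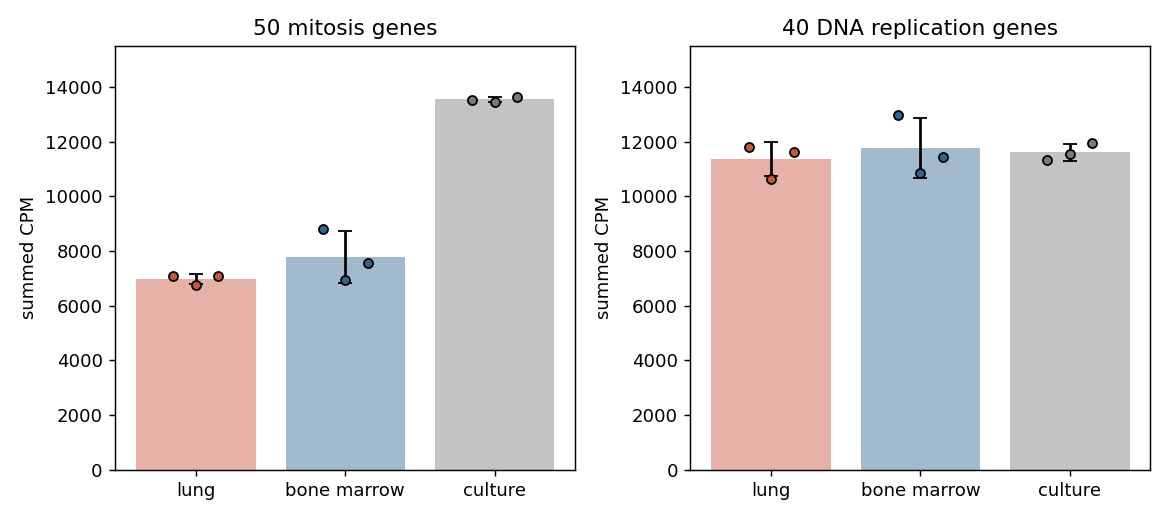
Summed level in CPM of the 50 mitosis genes and of the 40 DNA replication genes, with 1 point per library, bars at the mean of each group (lung, bone marrow, culture) and error bars of 1 SD. The mitosis sums are 6761 to 7075 in lung, 6952 to 8822 in bone marrow and 13462 to 13649 in culture, while the replication sums overlap between groups.

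Levels per exonic kb set the members in order within each group. Because that length joins all annotated isoforms, the order of genes depends on the annotation and does not measure proportions within a complex. Cdc20 was highest in all 3, at 143 CPM per kb in lung, 158 in bone marrow and 203 in culture. Cenpf, which had the largest exonic length of the members, was at 2.84, 3.42 and 9.27 CPM per kb in the same order. Within the passenger complex Aurkb, Incenp and Birc5 stood near each other in lung, at 47.7, 46.7 and 43.8 CPM per kb, with Cdca8 at 18.4. In culture Birc5, at 49.2 CPM per kb, was under Aurkb at 82.5 and Incenp at 73.1.

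Exonic length, which joins the exons of all annotated isoforms of a gene, was related to the changes of coding genes. Spearman's rho over coding genes was -0.197 in bone marrow against culture, -0.0926 in lung against culture and 0.261 in lung against bone marrow. Among coding genes with over 6000 exonic bases the median log2 change in bone marrow against culture was -0.21, and among those of up to 1500 bases it was 0.37. In lung against culture these medians were -0.06 and 0.11, and in lung against bone marrow 0.14 and -0.24. The members' medians were under those of coding genes in every length class they occupied. In bone marrow against culture their medians were -0.42 for the 8 members of 1500 to 3000 bases, -0.79 for the 25 of 3000 to 6000 and -0.80 for the 17 above. In lung against culture they were -0.75, -0.95 and -0.96. In lung against bone marrow they were -0.32, -0.14 and -0.14. Across the 50 members Spearman's rho between length and change was -0.395 in bone marrow against culture, -0.3 in lung against culture and 0.236 in lung against bone marrow, a description over genes that share libraries. With exonic length and GC content taken out by an offset, added after the data were seen, 42 members were lower and 1 higher in bone marrow, and 47 lower and 0 higher in lung, against culture. Of the 14744 genes in that fit, 28.7% were lower and 31.6% higher in bone marrow, and 27.4% and 28.6% in lung. In lung against bone marrow 20 members were lower and 2 higher, beside 10.5% and 10.4% of all genes. The median change of the members in bone marrow against culture was -0.63 with the offset and -0.74 without it. Under the offset 5 calls were lost: those of Spc24 (log2 change 0.15, adjusted p = 0.11), Bub3 and Kif20b in bone marrow against culture, of Wee1 in lung against culture (0.34, adjusted p = 0.101) and of Ccnb2 in lung against bone marrow. Other calls were gained. Bub3 (-0.33, adjusted p = 0.013) and Incenp (-0.35, adjusted p = 0.021) passed as lower in lung than in bone marrow. So did Cenpf (-0.42, adjusted p = 0.023) and Kif11 (-0.27, adjusted p = 0.045). Birc5 passed as lower in lung than in culture (-0.19, adjusted p = 0.048). Some falls in bone marrow against culture passed at smaller changes, among them Mki67 (-1.37), Cenpf (-1.16), Top2a (-0.94), Espl1 (-0.44) and Mad2l1 (-0.30). Others passed at larger ones, among them Aurka (-1.15) and Plk1 (-0.91).

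**Figure D5:**
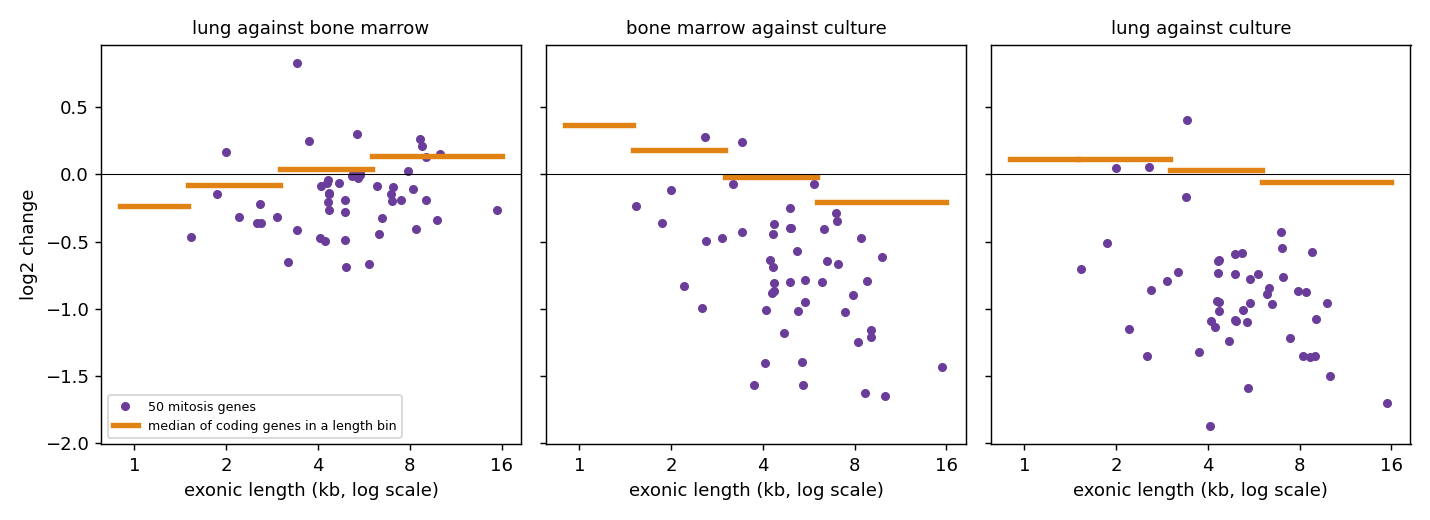
Log2 change of the 50 mitosis genes against exonic length in kb (log axis), 1 point per gene and 1 panel per comparison, with orange lines at the median of coding genes in each length class. Most members lie under the lines across lengths in bone marrow and in lung against culture, and nearer to them in lung against bone marrow.

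Some counts can include reads of a neighbour, since reads were counted without strand. Exons of an opposite-strand gene cover 22.8% of Ube2c (Tnnc2), 15.1% of Kif4 (Pdzd11), 13.4% of Ncapg (Lcorl), 12.7% of Cdc25c (Gm3550), 12.5% of Ccna2 (Exosc9) and 11.1% of Prc1 (Rccd1). Ccnb1, Ccnb2, Kif22 and Kif4 have annotated pseudogenes named after them, so their counts could be split with near copies.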

How the data were processed

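RNA of few cells was isolated with the RNeasy Plus Micro kit, amplified with SMART-seq v4 and made into libraries with ThruPLEX, per the labels' protocols. The submitters' processing notes name bcl2fastq, STAR and the mm10 genome, with versions, counting tool and annotation not given in the sources used here. The deposited values are raw unstranded read counts per gene symbol, as deposited by the authors, and every symbol names a gene. The 50 members, the gene lists and the rule for named genes were chosen with earlier results of these data known. That rule names, for each role and comparison, the 2 called members with the largest change that reach 10 CPM, members called against the majority, and Mki67, Top2a, Cdk1 and Ccnb1. Members beyond it are described after their values were seen. For other mitosis genes it names the 2 largest rises and falls per role, with Foxm1 and Mybl2.

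A low-count filter (filterByExpr) kept 15066 genes with 99.9% or more of the reads of a library, and libraries were scaled with TMM (factors 0.966 to 1.039). All 9 libraries entered 1 quasi-likelihood model (edgeR 4.0.16, robust, R 4.3.3), and each comparison was a contrast. Adjusted p-values are from that test, Benjamini-Hochberg adjusted over all genes tested, called under 0.05, and ± beside a log2 change is its standard error. Alternatives were other scalings, filters, DESeq2 1.42.0, limma 3.58.1 (voom with quality weights), fits of 6 libraries, a replicate block, each library left out, a 1.5-fold threshold, and an offset for exonic length and GC content. Gene positions and lengths are from GENCODE M21 (GRCm38, the assembly of mm10). No pair of libraries in a group was a duplicate (chi-square per degree of freedom 15.6 to 29.3 in lung, 30.2 to 43.9 in bone marrow and 3.92 to 7.98 in culture).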

Additional observations from a re-analysis of the deposited data

Results flagged for a closer look

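For 2 members the change against culture had opposite signs in lung and in bone marrow, while lung and bone marrow themselves differed past the threshold. Wee1, the inhibitor of CDK1, had a log2 change of 0.40 in lung and -0.43 in bone marrow against culture, and the difference between the tissues was 0.83 ± 0.15 (edgeR adjusted p = 0.0031). Lung replicates 1 and 2 carry the rise, and lung replicate 3 lies just under the culture libraries. Birc5, which encodes survivin, had a log2 change of -0.17 in lung, which did not pass, and 0.24 in bone marrow against culture, and the difference between the tissues was -0.41 ± 0.08 (edgeR adjusted p = 0.0038). The 3 bone marrow libraries of Birc5 lie above all culture libraries and the 3 lung libraries under them. The call of Birc5 in bone marrow against culture was lost under 5 alternatives, among them leaving out any 1 culture library or bone marrow replicate 1, and that of Wee1 was lost under 10 alternatives in lung and 6 in bone marrow against culture. In lung against culture Birc5 passed as lower under 3 alternatives.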

How the results depend on the processing

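No member past the threshold changed its direction under any alternative, over 3000 values compared, and the 49 changes of sign were in members past no threshold. Requiring a change of more than 1.5-fold left 0 members called, 0 lower and 0 higher in lung against bone marrow, 24 called, 24 lower and 0 higher in bone marrow against culture, and 32 lower and 0 higher in lung against culture. It left 476, 3916 and 3144 of all genes called in the same order. Members higher in lung against bone marrow numbered 1 with upper-quartile scaling and 1 with only the 6 libraries of the comparison, a fit in which 12 were lower. The genes higher among all tested numbered 1796 and 1400 under these settings. The offset for exonic length and GC content left 1 member higher in bone marrow and 0 in lung against culture, beside 31.6% and 28.6% of all genes. Leaving out single libraries gave 12 to 22 members called in lung against bone marrow, with 11 to 21 lower and 1 to 6 higher. Those fits called 2414 to 4760 of all genes in lung against bone marrow. Members higher with a library left out numbered 0 to 2 in bone marrow against culture and 0 to 1 in lung against culture. The cause was not tested.

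The replicate numbers were not treated as pairs, since the labels do not say that they pair libraries. Residuals of like-numbered lung and bone marrow libraries had correlations of 0.0296, 0.268 and 0.0869 across the genes tested. The value of replicate 2 was above the threshold of 0.1 set for pairing. With a replicate block, 4133 of all genes were called in lung against bone marrow, against 3806 without it. That block gave 19 members called in lung against bone marrow, 46 in bone marrow against culture and 46 in lung against culture, where 0 were higher. Of all genes called in lung against bone marrow without the block 56.2% were higher, against 46.2% with upper-quartile scaling, which also moved the median of all genes in bone marrow against culture to 0.12. The fit of the 6 tissue libraries called 2381 genes there, against 3806 with all 9. Calls most often lost in lung against bone marrow were those of Kif20a (11 alternatives), Kif22 (10), Ect2 (9), Plk1 (8) and Ube2c (6). In bone marrow against culture they were those of Ccnb2 (8), Wee1 (6), Birc5 (5) and Spc24 (4). All members had enough reads to be tested.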
